A study of Mus musculus with 22 samples.

Results

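The genes of the myelin sheath were described along the body axes of the mouse brain at 7 days after birth. The 9 genes were chosen by name, namely Mbp, Mog, Mag, Mobp, Cnp, Mal, Ermn, Opalin and Ugt8a. All 9 were found among the 20129 gene symbols that the array's RefSeq-identified probes gave. Together they had 14 such probes, because Mbp and Mobp had 3 each and Ermn had 2. Each gene was read from its probe with the highest median over all fractions, called probe 1 here, and the other probes were read beside it. The study sliced the whole brain of each of 3 males of the inbred mouse strain C57BL/6J by Transcriptome Tomography, which pools consecutive slices into slabs called fractions and measures the RNA of each fraction on an array. A single mouse gave the coronal series of 10 fractions, another the horizontal series of 6 and the last the sagittal series of 6, so that there were 22 arrays and no fraction had a replicate. The animals carried no transgene or treatment in the labels. The sample titles give the age as 7 days and the age field as 3 days, and the age is stated here as in the titles. Most fractions were 1 slab, but coronal fraction 10 held 2 slabs, sagittal fraction 1 held 2 and sagittal fraction 6 held 3.

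In the central nervous system, myelin is the spiral of oligodendrocyte membrane that insulates axons. Oligodendrocytes arise from dividing precursors, pass through a newly formed state and then switch on the sheath genes under transcription factors that include SOX10 and MYRF. In rodents myelination begins before and around birth in the spinal cord and hindbrain and reaches the forebrain later. The members divide into 4 early genes and 5 late genes by the textbook order in which maturing oligodendrocytes use them. Among the early genes, Cnp encodes a cyclic nucleotide phosphodiesterase of non-compact myelin, Ugt8a the enzyme that makes galactocerebroside, Mbp the basic protein that compacts the membrane and Mag an adhesion protein facing the axon. Among the late genes, Mog encodes a surface glycoprotein of the outermost layer, Mobp a small basic protein of compact myelin, Mal a proteolipid of membrane sorting, Opalin a transmembrane protein of oligodendrocytes and Ermn a cytoskeletal protein of the outer sheath.

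The stretches before the start are printed for the 7 members that fell along the coronal series, whether or not they held a motif searched for. RefSeq promoter windows (build GRCm38.p6) were matched for 8 of the 9 members, Mbp being the exception. The 250 bases upstream of the annotated start were searched on both strands for ACAAAG and ACAAT, which are core SOX motifs, for CTGGCAC and CTGGTAC, which are MYRF motifs, and for the E-box CAGCTG. None of these motifs contains another. Capitals below mark every match, and each line runs 5′ to 3′ in the direction of the gene.
Cnp, chr11:100574689-100574938, plus strand: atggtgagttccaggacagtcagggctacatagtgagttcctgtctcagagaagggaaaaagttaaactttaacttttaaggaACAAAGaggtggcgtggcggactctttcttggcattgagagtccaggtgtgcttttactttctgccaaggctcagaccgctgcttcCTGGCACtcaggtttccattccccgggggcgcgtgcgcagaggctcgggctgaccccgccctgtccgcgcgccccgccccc
Ugt8a, chr3:125938653-125938902, minus strand: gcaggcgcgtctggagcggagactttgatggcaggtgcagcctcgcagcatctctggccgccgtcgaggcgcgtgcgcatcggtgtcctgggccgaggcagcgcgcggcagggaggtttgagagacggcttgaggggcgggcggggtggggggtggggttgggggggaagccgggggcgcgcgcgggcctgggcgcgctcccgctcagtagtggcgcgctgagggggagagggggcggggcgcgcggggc
Mag, chr7:30914864-30915113, minus strand: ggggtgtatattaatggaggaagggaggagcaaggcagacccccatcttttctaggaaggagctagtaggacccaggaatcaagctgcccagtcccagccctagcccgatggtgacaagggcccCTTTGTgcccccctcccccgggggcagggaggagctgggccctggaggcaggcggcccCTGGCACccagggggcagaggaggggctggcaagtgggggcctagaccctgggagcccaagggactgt
Mog, chr17:37023399-37023648, minus strand: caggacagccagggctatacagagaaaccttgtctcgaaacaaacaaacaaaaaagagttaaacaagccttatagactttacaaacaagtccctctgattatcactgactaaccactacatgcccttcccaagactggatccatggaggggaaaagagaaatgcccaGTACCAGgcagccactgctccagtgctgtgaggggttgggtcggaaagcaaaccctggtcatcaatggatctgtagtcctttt
Mobp, chr9:120149492-120149741, plus strand: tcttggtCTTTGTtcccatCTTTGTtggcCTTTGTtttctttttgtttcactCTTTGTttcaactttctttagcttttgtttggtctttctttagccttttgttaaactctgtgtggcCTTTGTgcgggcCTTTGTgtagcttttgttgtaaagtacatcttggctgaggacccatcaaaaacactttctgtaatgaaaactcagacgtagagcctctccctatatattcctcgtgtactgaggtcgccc
Mal, chr2:127656696-127656945, minus strand: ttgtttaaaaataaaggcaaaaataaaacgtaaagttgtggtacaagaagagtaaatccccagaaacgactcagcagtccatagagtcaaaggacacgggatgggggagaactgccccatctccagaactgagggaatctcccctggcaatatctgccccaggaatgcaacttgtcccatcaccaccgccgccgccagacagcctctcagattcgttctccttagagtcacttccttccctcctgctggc
Opalin, chr19:41077114-41077363, minus strand: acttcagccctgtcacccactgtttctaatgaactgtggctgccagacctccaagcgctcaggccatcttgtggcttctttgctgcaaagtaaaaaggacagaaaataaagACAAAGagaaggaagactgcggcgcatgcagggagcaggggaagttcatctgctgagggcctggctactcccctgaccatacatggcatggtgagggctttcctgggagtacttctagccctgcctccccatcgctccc
The motif CTGGCAC was held by Cnp, with its first base at -81 from the start, and by Mag, at -68, and by 4.19% of all 32851 windows. CTGGTAC was held by Mog alone of the 8, on the opposite strand at -83, and by 1.83% of all windows. ACAAAG was held by Cnp, Mag, Mobp and Opalin and by 16.5% of all windows. The Mobp stretch held it 6 times, each time on the opposite strand. ACAAT was held by Ermn and by 27.7% of all windows, and CAGCTG by none of the 8 and by 13% of all windows. Mal and Ugt8a held none of these letters in the window. Mag had 3 windows in the table, and 1 of them held no match.

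The level of a probe is log2 of its processed intensity minus the 75th percentile of its array, so that 1 unit is a doubling and levels of different probes cannot be set against each other. Per array, 29605 to 41965 of 55600 probes stood well above background. The number of arrays limits the precision. In 7 fractions the slope of the spike-in controls was below the range Feature Extraction accepts, between 0.773 and 0.891 against 0.949 to 1.07 on the other 15 arrays. These arrays were those of fractions 1 and 2 in the coronal, 1 to 3 in the horizontal and 1 and 3 in the sagittal series. Since the labels name no end of the brain for fraction 1, the ends were read from region genes. The hindbrain gene Hoxa5 was at 2.85 in coronal fraction 1 and at -5.85 in fraction 10, and the olfactory bulb gene Tbx21 at -3.26 and 2.87. In the coronal linear test used below, 4 of the 5 hindbrain genes listed fell and Hoxd3 did not pass. Of the 4 olfactory bulb genes listed, 2 rose and the others did not pass. Coronal fraction 1 is therefore called caudal and fraction 10 rostral. In the horizontal series the cortical genes Cux2 and Lhx2 were highest in fraction 1 and the hypothalamic gene Avp in fraction 6, which are called dorsal and ventral. In the sagittal series the serotonergic genes Tph2, Slc6a4 and Fev of the midline raphe were all highest in fraction 4, and the outer fractions 1 and 6 are called lateral.

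The first question was whether the myelin genes changed from the caudal to the rostral end. Of the 9 members, 7 fell along the coronal series, namely Cnp, Ugt8a, Mag, Mog, Mobp, Mal and Opalin. All 7 had their highest coronal level in fraction 1. The Cnp level in fractions 1 to 10 was 5.42, 4.52, 5.25, 4.68, 3.30, 3.46, 3.53, 3.26, 2.55 and 2.17. The Mag level was 5.10, 4.00, 4.86, 4.08, 1.89, 1.51, 1.30, 0.46, -0.16 and 0.03. Both genes stayed high over the 4 caudal fractions, dipped in fraction 2 among them, and then dropped between fractions 4 and 5. The Mobp level was 5.77, 4.21, 5.17, 4.21, 1.10, -0.05, -0.41, -1.02, -1.47 and -0.53, with the same dip and the same drop. The Ugt8a level was 1.84, 0.73, 1.33 and 0.33 in fractions 1 to 4 and between -2.35 and -1.28 in fractions 5 to 10. The Mal level was 4.52, 3.12, 3.44 and 2.38 in fractions 1 to 4 and between -0.66 and 0.28 further rostral. Every one of these genes was higher in each of fractions 1 to 4 than in any of fractions 5 to 10. The Mog level was 1.34, 0.10, 0.97 and -0.15 in fractions 1 to 4, reached its lowest value of -1.65 in fraction 7 and came back to -0.78 and -0.66 in fractions 9 and 10. Opalin lay close to background. Its level was -2.29, -4.00, -3.09, -4.97 and -4.33 in fractions 1 to 5, and it was not well above background in fractions 6 to 10.

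**Figure D1:**
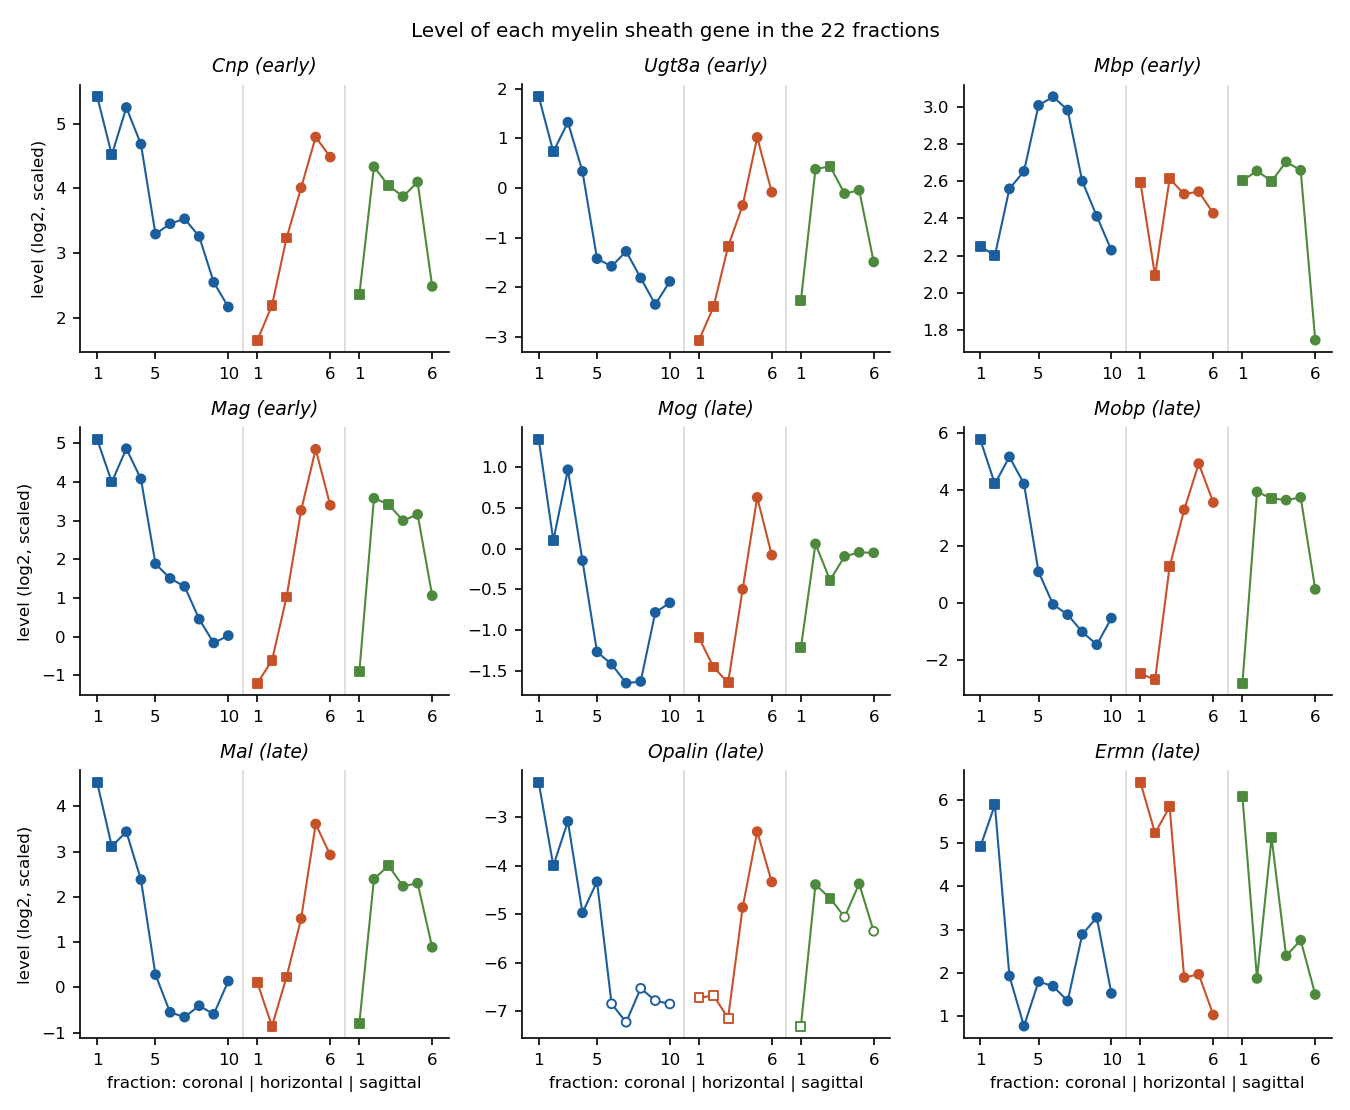
Level of each member (probe 1; log2, scaled to the array's 75th percentile) against the fraction number, with the coronal series in blue, the horizontal in orange and the sagittal in green. Points are single arrays, squares mark the 7 arrays with a low spike-in slope and open points were not well above background; 7 genes start high in coronal fraction 1 and peak in horizontal fraction 5, while Mbp and Ermn do not, and each panel has its own axis.

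The linear change over the coronal series, fitted from fraction 1 to fraction 10 with its standard error, was -3.15 ± 0.41 log2 units for Cnp (limma, adjusted p = 0.000412). Ugt8a changed by -4.19 ± 0.55 (adjusted p = 0.00049) and Mag by -5.87 ± 0.80 (adjusted p = 0.000586). Among the late genes, Mobp had the steepest change of all members other than Opalin, -7.88 ± 1.15 (adjusted p = 0.000907). Mal changed by -5.21 ± 0.72 (adjusted p = 0.000624) and Mog by -2.29 ± 0.52 (adjusted p = 0.0122). The linear term of Opalin passed as well (adjusted p = 0.00233), but its fitted size rests on 5 fractions not well above background. It was -4.83 as scaled here and -0.92 after normexp background correction (adjusted p = 0.014), so that the size is given only as a bound. As measured, fraction 1 exceeded fraction 10 by 9.47-fold for Cnp, 13.2-fold for Ugt8a, 33.5-fold for Mag, 20.9-fold for Mal, 78.9-fold for Mobp and 4.01-fold for Mog. For Opalin it was at least 11.9-fold higher, taken against the lowest signal well above background on the array of fraction 10. A fall of this kind, at an adjusted p under 0.05, was met by 4.96% of the 39621 probes tested, and the median change over all of them was -0.14. In the joint test of the linear and the quadratic coronal term, 8 of the 9 members passed, against 19.8% of all probes. Fractions 1 to 4 lay wholly above fractions 5 to 10 in 6 members, against 4% of all probes, a division of the series chosen after the values were seen. In a whole-tissue fraction, fewer cells of a type and less RNA per cell cannot be told apart.

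Without the 7 arrays of low slope in all series, 6 of the 7 still fell, and Mog did not pass (change -1.29, adjusted p = 0.0672). That fit left 6 residual degrees of freedom, and 687 of 39621 probes fell in it, against 1964 in the reported fit. Mog also failed without coronal fraction 1 (change -1.54, adjusted p = 0.0872). With the coronal arrays fitted alone, Mog failed in the linear term (adjusted p = 0.0542) and in the joint test (adjusted p = 0.0547). The arrays lay on 4 slides, and with the slide as a block none of the 7 linear terms passed, at sizes between -9.18 and -3.06 and adjusted p between 0.137 and 0.183. In that fit 61 probes passed the coronal linear term, against 4856 without the block. Coronal fractions 1 and 3 to 8 shared 1 slide, and within it the mean of the 3 caudal fractions exceeded that of fractions 5 to 8 by 1.73 units for Cnp, 2.21 for Mog, 2.69 for Ugt8a, 3.39 for Mag, 3.78 for Mal and 5.14 for Mobp. Opalin was well above background in only 1 of those 4 rostral fractions, and its difference was at least 1.88 units, taken against the lowest signal well above background on each array where it was not. The joint coronal test, with the slide as a block, was still passed by those 7 genes. Over all 39621 probes 1598 passed the joint test in that fit, against 7855 without the block.

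**Figure D2:**
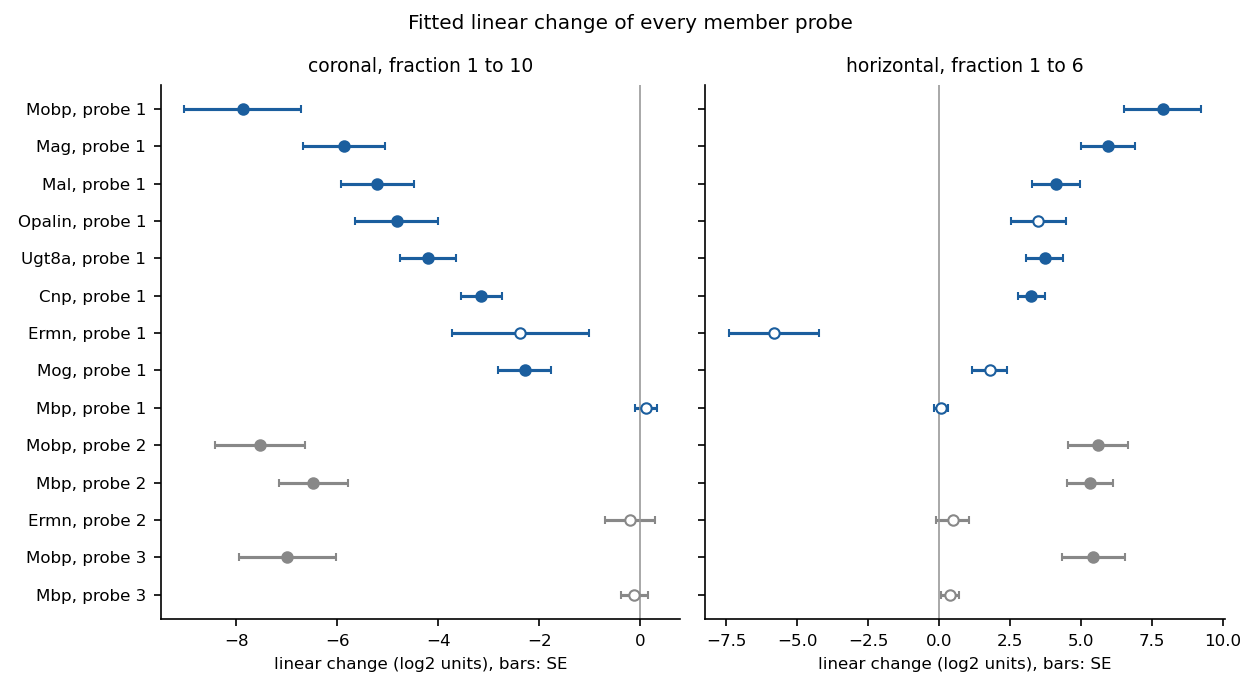
Fitted linear change (log2 units) of all 14 member probes along the coronal series, left, and the horizontal series, right. Bars are standard errors, blue points are probe 1 and grey points the other probes; filled points have an adjusted p under 0.05 in the coronal linear test (left) or in the joint horizontal test (right), and the 3 Mobp probes lie close together while those of Mbp do not.

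Mbp and Ermn did not follow the other members when read from probe 1. Probe 1 of Mbp, annotated to the transcript NM_001025245, was at 2.25, 2.20, 2.56, 2.65, 3.01, 3.05, 2.98, 2.60, 2.41 and 2.23 in coronal fractions 1 to 10. It was thus highest in the middle of the series and passed the joint coronal test (adjusted p = 0.0218), with a linear change of 0.12 ± 0.21. Without coronal fraction 5, 6 or 7 it no longer passed, with adjusted p between 0.0507 and 0.0608, nor did it without the arrays of low slope (adjusted p = 0.0699). It also failed with the slide as a block (adjusted p = 0.167), with the signal of spike-in probe a107 as a covariate (adjusted p = 0.113) and when the coronal arrays were fitted alone (adjusted p = 0.0985). Probe 2 of Mbp, annotated to NM_010777, was at 5.46, 3.88, 4.34, 3.07, 0.36, 0.23, 0.42, 0.13, -0.93 and -0.53. It dropped between fractions 4 and 5 as the 7 falling genes except Opalin did, and its linear change was -6.47 ± 0.69 (adjusted p = 0.000128). Probe 3 of Mbp was annotated to the same transcript as probe 2, lay between -2.02 and -1.17 in the coronal series and changed by -0.11 ± 0.27. Across the 22 fractions probe 1 had a Pearson r of -0.05 with probe 2, as a description over fractions that share 3 brains. The Mbp locus makes classic myelin basic proteins and golli proteins from different starts, and the files do not say which of these each probe reads.

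Probe 1 of Ermn lay between 4.92 and 6.41 on the 7 arrays with a low spike-in slope and between 0.76 and 3.28 on the other 15, with no overlap. Its r with the log2 signal of spike-in probe a107 was 0.94 over the 22 arrays, against -0.42 to -0.19 for the 7 falling genes. It changed by -2.37 ± 1.35 along the coronal series (adjusted p = 0.268) and failed the joint test (adjusted p = 0.142). The linear change turned to 1.01 on the arrays of in-range slope (adjusted p = 0.469). The fitted coronal range of 3.53 units was 0.98 with the signal of a107 as a covariate and 1.00 on the arrays of in-range slope. Probe 2 of Ermn, of the same transcript, lay between -0.44 and 1.12 in the coronal series and changed by -0.20 ± 0.50. The r of the Ermn probes with each other was -0.38. The 3 probes of Mobp, in contrast, ran together, with r of 0.98 and 0.97 between probe 1 and the others.

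**Figure D3:**
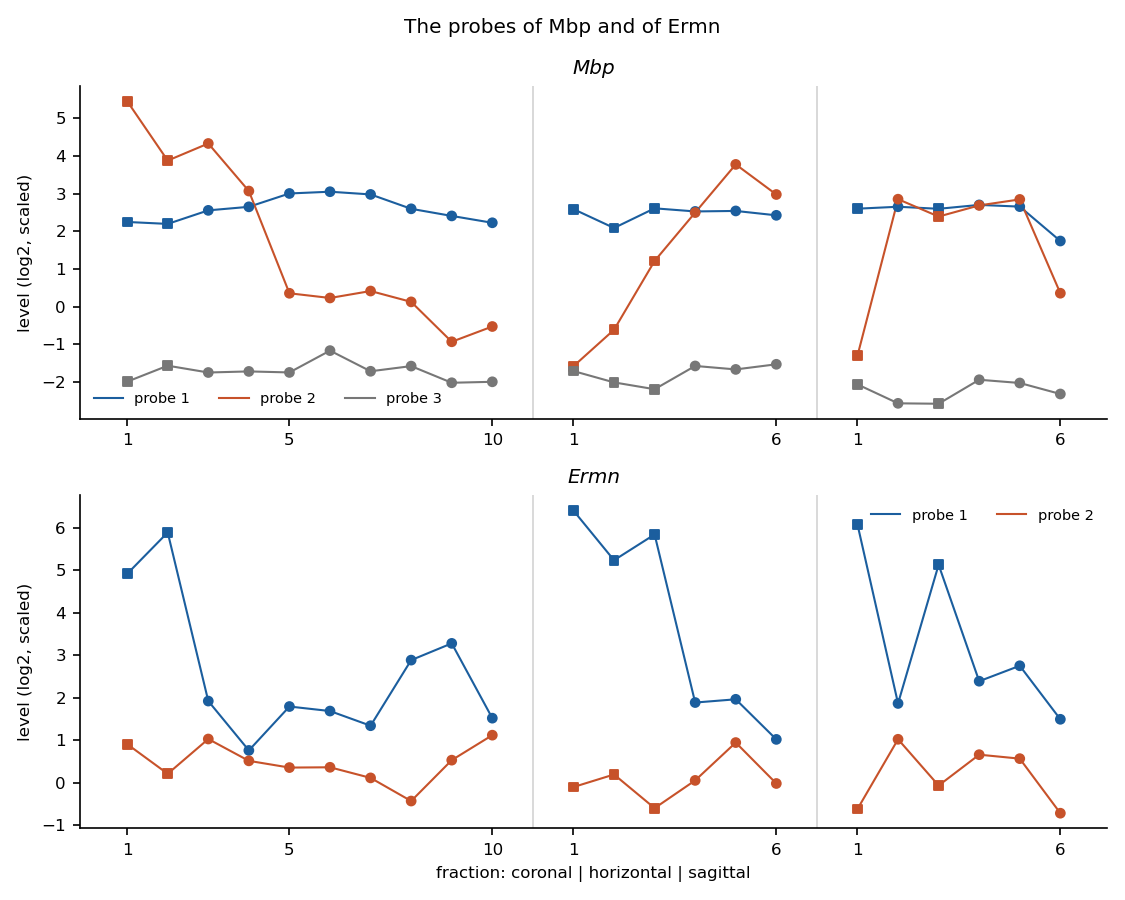
Level (log2, scaled) of the 3 probes of Mbp and the 2 probes of Ermn against the fraction number in the coronal, horizontal and sagittal series, from left to right. Squares mark the arrays with a low spike-in slope; Mbp probe 2 falls along the coronal series while probes 1 and 3 stay within 0.85 units there, Ermn probe 1 is high on every square, and heights of different probes are not comparable.

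Along the horizontal series 5 of the 9 members changed in the joint test, Cnp, Ugt8a, Mag, Mobp and Mal, against 6.57% of all probes. All 5 were highest in fraction 5 and higher in each of the ventral fractions 4 to 6 than in any of the dorsal fractions 1 to 3. The Cnp level in fractions 1 to 6 was 1.66, 2.20, 3.24, 4.01, 4.79 and 4.48 (adjusted p = 0.00903). The Mag level was -1.20, -0.61, 1.03, 3.27, 4.85 and 3.40 (adjusted p = 0.0117). The Mobp level was -2.48, -2.71, 1.29, 3.30, 4.92 and 3.55 (adjusted p = 0.0167). These genes climbed over the first 5 fractions, Mobp from fraction 2 on, and were lower again in the most ventral fraction. The Ugt8a level went from -3.07 in fraction 1 to 1.02 in fraction 5 (adjusted p = 0.0171) and the Mal level from 0.10 to 3.61 (adjusted p = 0.0307). Mog and Opalin also had their highest values in fraction 5, 0.63 and -3.30, but did not pass (adjusted p = 0.108 and 0.0731). The linear change of Mog was 1.78 ± 0.62. Opalin was well above background in fractions 4 to 6 only, so that no size is given for it. Probe 1 of Mbp stayed between 2.09 and 2.61 (adjusted p = 0.974), while its probe 2 went from -1.58 to 3.78 between fractions 1 and 5 (adjusted p = 0.00979). Probe 1 of Ermn ran the other way, at 6.41, 5.24, 5.85, 1.89, 1.96 and 1.02 in fractions 1 to 6. Its linear change was -5.82 ± 1.59, and it did not pass (adjusted p = 0.0697). It passed among probes well above background on all arrays and without coronal fraction 2 or 10, with adjusted p between 0.0413 and 0.0463, and its 3 high values were on arrays of low spike-in slope.

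All 6 horizontal arrays lay on 1 slide, so that the slide as a block cannot alter the fitted horizontal changes and is no check of them. Fractions 1 to 3 were the arrays with a low spike-in slope and fractions 4 to 6 were not, so that the slope and the dorsal position cannot be told apart in this series. With the signal of a107 as a covariate no member passed, and the calls over all probes fell from 2604 to 101. The fitted range of Mobp was then 5.03 units against 7.87, that of Mal 2.49 against 4.12 and that of Cnp 2.38 against 3.24. The arrays of in-range slope hold only fractions 4 to 6 of this series, over which no member passed and the fitted range was 0.78 for Cnp and 1.63 for Mobp. Without horizontal fraction 1 the fitted range was 2.45 units against 3.24 for Cnp and 7.23 against 7.87 for Mobp. The adjusted p of the 5 genes was then between 0.0695 and 0.0772, and 9 of all probes passed. Mal also failed without fraction 2, 3 or 4, with adjusted p between 0.0521 and 0.0857. Without horizontal fraction 5 only Cnp and Mag passed, with 396 calls over all probes.

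Along the sagittal series no member passed, either in the linear term from side to side or in the quadratic term of the middle against both sides. After adjustment, 10.2% of all probes passed the linear term and 0.0303% the quadratic term. At an unadjusted p under 0.05 there were 2 of the 9 members in the linear term, against 24.1% of all probes, and 7 in the quadratic term, against 14.8%. The Mobp level in fractions 1 to 6 was -2.83, 3.93, 3.70, 3.64, 3.73 and 0.48, and its quadratic term was -5.35 ± 1.10 (adjusted p = 0.0645). The Mag level was -0.91, 3.58, 3.42, 3.00, 3.16 and 1.06, with a quadratic term of -3.46 ± 0.77 (adjusted p = 0.074). The Cnp level was 2.36, 4.34, 4.04, 3.88, 4.10 and 2.49, with a quadratic term of -1.75 ± 0.39 (adjusted p = 0.074). In each of these genes the 4 inner fractions lay above both lateral fractions, and the inner fractions differed by 0.29 units for Mobp, 0.58 for Mag and 0.46 for Cnp. The Ugt8a level was -2.27 and -1.49 in the lateral fractions and between -0.11 and 0.44 in the inner ones (adjusted p = 0.0826). Mal lay at -0.79 and 0.89 in the lateral fractions and between 2.23 and 2.69 inside (adjusted p = 0.0989). The linear changes from fraction 1 to 6 ranged from -0.14 to 2.18 over the 7 genes, with 2.18 ± 1.44 for Mobp (adjusted p = 0.377) and 1.11 for Mag. Without the arrays of low slope, which include sagittal fractions 1 and 3, these terms passed with the opposite sign, at -3.29 for Mobp (adjusted p = 0.0301) and -2.39 for Mag (adjusted p = 0.039). That fit lacks lateral fraction 1 and keeps lateral fraction 6. Its linear term therefore sets inner fractions against 1 lateral end and no longer runs from side to side. Mog lay at -1.22 in fraction 1 and at -0.05 in fraction 6, the latter within the range of its inner fractions, -0.39 to 0.06.

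The early and the late genes were compared by centring each gene on its own coronal mean and averaging within each class. The late mean changed by -4.51 log2 units over the coronal series and the early mean by -3.27. The difference was -1.24 ± 0.40, given with no test, and its standard error holds only the scatter over the fractions of 1 brain. Each class held a gene that did not fall, Mbp among the early and Ermn among the late. Without these genes the late mean changed by -5.05 and the early mean by -4.40, a difference of -0.65 ± 0.42. With all probes of a gene averaged the difference was -0.37, and with probe 2 in place of probe 1 where a gene had one it was 0.91, so that its sign depended on the probe. Without Opalin as well, whose rostral values lie at background, the difference was -0.72. Among those 6 genes the late mean minus the early mean was 0.81, 0.45, 0.43, 0.17, -0.16, -0.75, -1.04, -0.60, 0.09 and 0.59 units in coronal fractions 1 to 10. Since each gene was centred on its coronal mean, these values sum to 0, and only their differences between fractions can be read. The unbroken run of coronal fractions from fraction 1 within 2 units of the gene's maximum was 4 for Cnp, Ugt8a, Mag, Mog and Mobp, and 3 for Mal and Opalin. For Cnp, fractions 6 and 7 also lay within 2 units, while fraction 5 did not. All 9 members except Opalin were well above background in all 22 fractions, and Opalin in 11.

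**Figure D4:**
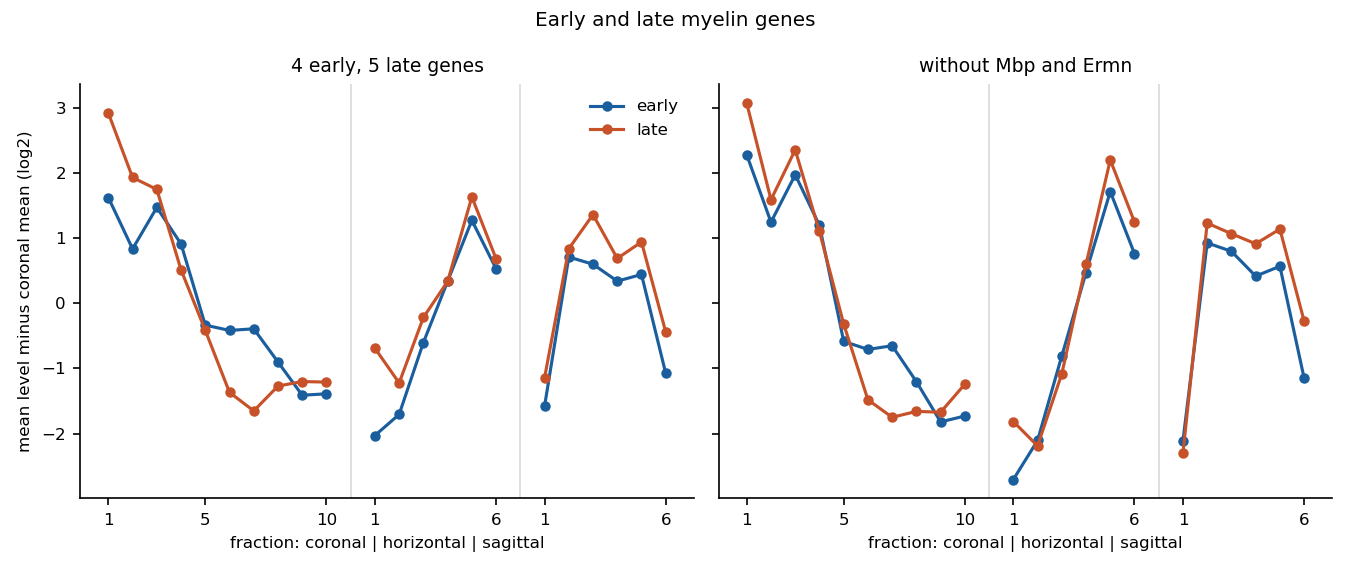
Mean level of the early genes (blue) and the late genes (orange), each gene centred on its own coronal mean (log2 units), against the fraction number in the coronal, horizontal and sagittal series. The left panel holds all 9 genes and the right panel leaves out Mbp and Ermn; both classes fall along the coronal series, with the late mean from 3.07 to -1.24 and the early mean from 2.28 to -1.73 between fractions 1 and 10 in the right panel.

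Across the 22 fractions 16 of the 36 pairs of members exceeded an r of 0.85, the threshold by which the study defines similarly expressed transcripts, against 1.91% of all pairs of probes tested. All 16 lay among the 21 pairs of the 7 falling genes, whose r ranged from 0.73 to 0.98. These genes were set apart by their fall on the same arrays, so their likeness is a description. The 15 pairs with Mbp or Ermn had r between -0.35 and 0.16. By that threshold Cnp had 169 similarly expressed probes, Mag 160, Mobp 151, Ugt8a 146, Mal 101, Opalin 48 and Mog 35, while probe 1 of Mbp had 13 and probe 1 of Ermn 3614. Among 16682 other genes, the 10 with the patterns most like the mean of the 9 standardised members included Plekhh1 and Tmem125 (both r = 0.97) and Gal3st1 (r = 0.96), the enzyme that sulphates galactocerebroside. They also included Adamts4, Sncg, Tmem88b, Mthfd2l and Fa2h, with r between 0.94 and 0.95. Fa2h makes the hydroxylated fatty acids of myelin lipids. Genes of caudal position ran with the members too, since the 5 Hox genes of the hindbrain list had r between 0.62 and 0.92 with the mean of the 7 falling genes.

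Other genes of the oligodendrocyte lineage were read from gene lists. Of 25 further myelin and mature oligodendrocyte genes, 16 fell along the coronal series, 1 rose and 8 did not pass, with a median change of -1.98 against -0.14 over all probes, of which 4.96% fell. With the slide as a block none of the 25 passed the linear term, while 14 passed the joint coronal test, against 18 without the block. Over all 39621 probes the joint test had 1598 calls with the block and 7855 without. Among those that fell, Fa2h changed by -3.92 ± 0.46 (limma, adjusted p = 0.000246). The Fa2h level was 1.97 in coronal fraction 1 and -1.84 in fraction 10, the lowest of the series. The gene that rose was Tubb4a, a tubulin that neurons also use, at 0.71 ± 0.22 (adjusted p = 0.0487), and Cntn2, an axonal adhesion gene, changed by -0.06 ± 0.50. Along the horizontal series 9 of the 25 passed, all with the higher level on the ventral side, against 6.57% of all probes. With the signal of a107 as a covariate only Fa2h passed, and without horizontal fraction 1 none did.

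Of 9 oligodendrocyte transcription factors, Myrf was not well above background in any fraction and was not tested. Of the 8 tested, 2 fell, against 4.96% of all probes. Zfp536 fell by 1.46 ± 0.28 (adjusted p = 0.00453). Nkx6-2 fell as well (adjusted p = 0.016), but it was well above background in only 7 of the 10 coronal fractions, so that no size is given. The lineage factors Sox10 and Olig1, which precursors already use, changed by -0.78 ± 0.40 and -0.25 ± 0.28 and did not pass. In the horizontal test 4 of the 8 passed, all higher on the ventral side, against 6.57% of all probes. They were Sox10, Olig2, Nkx6-2 and Zfp536, with a linear change of 2.74 for Sox10 (adjusted p = 0.0128). Of 9 precursor and newly formed oligodendrocyte genes, 5 fell, namely Enpp6, Neu4, Bcas1, Itpr2 and Gpr17, against 4.96% of all probes. Enpp6, a marker of newly formed oligodendrocytes, fell by 3.61 ± 0.48, and Bcas1 by 2.93 ± 0.41. Pdgfra and Cspg4, which mark precursors, changed by -0.24 ± 0.20 and 0.05 ± 0.33 in the linear term. Both passed the joint coronal test (adjusted p = 0.0175 for each), with their highest levels in fractions 5 and 6. In the horizontal test 6 of these 9 genes passed, all higher on the ventral side, against 6.57% of all probes. Pdgfra was among them with a linear change of 1.13 (adjusted p = 0.0201). With the slide as a block no gene of either list passed a coronal test. With the signal of a107 as a covariate only Gpr17 of both lists passed the horizontal test, and without horizontal fraction 1 none did.

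**Figure D5:**
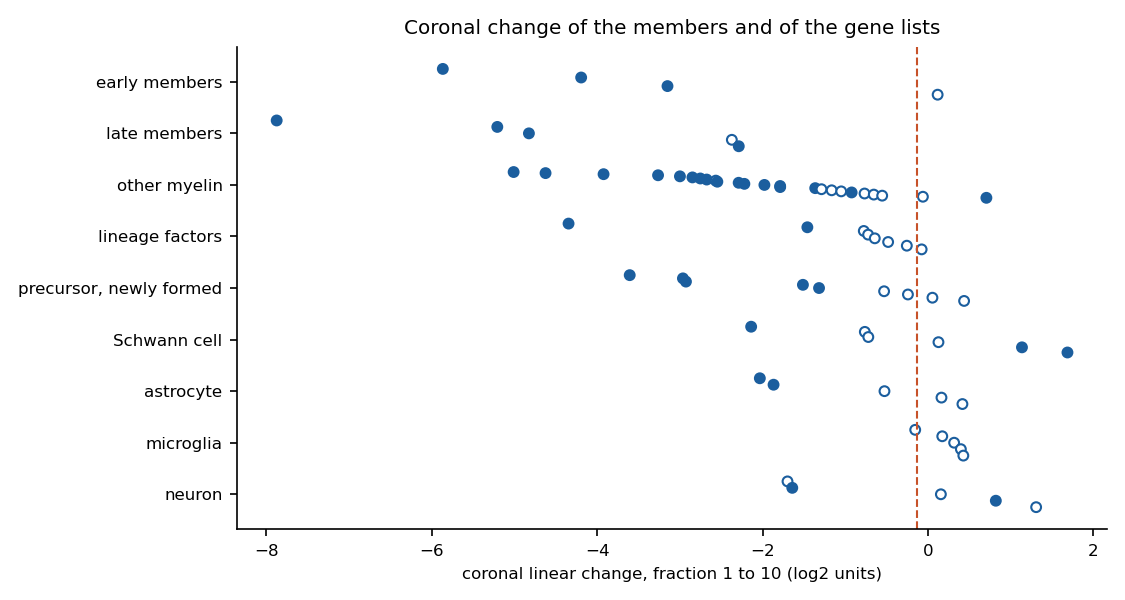
Coronal linear change (log2 units, fraction 1 to 10) of each tested gene in the member classes and in the lists of other genes; points are genes, filled points have an adjusted p under 0.05, and the dashed line is the median of all probes, -0.14. The members reach from -7.88 to 0.12, the one other myelin gene that rose lies at 0.71 and the microglial genes lie between -0.15 and 0.43.

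Genes of other cell types were read beside the members. A slab could also hold nerve roots, whose myelin is made by Schwann cells. Of 7 Schwann cell genes, Pmp2, a fatty acid binding protein of peripheral myelin, was well above background nowhere. Of the 6 tested, Ncmap fell by 2.14 ± 0.66, Egr2 and Drp2 rose and 3 did not pass. No Schwann cell gene passed the linear term with the slide as a block or on the arrays of in-range slope. Egr2 and Drp2 passed the joint coronal test with the block. The summed level of the list lay between 2.12 and 3.67 in the coronal series. Of 5 astrocyte genes, Gfap and Aqp4 fell, by 2.03 ± 0.35 and 1.87 ± 0.38, and 3 did not pass, and the summed level ranged from 5.81 to 6.95. No astrocyte gene passed a coronal test with the slide as a block. None of 5 microglial genes and none of 3 endothelial genes passed the coronal linear test. In the same test, of 5 neuronal genes Nefl fell, Stmn2 rose and 3 did not pass. The joint coronal test was passed by 4 of the 5, against 19.8% of all probes. Of these, Rbfox3, Syt1 and Stmn2 had a positive linear term and Nefl a negative one. When the slide was a block, no neuronal gene passed the linear term, and only Stmn2 and Nefl passed the joint test. In the horizontal test 3 of the 5 microglial genes, Cx3cr1, Csf1r and C1qa, passed with the higher level on the ventral side, with linear changes of 1.92, 1.55 and 1.66, against 6.57% of all probes. None of the 3 passed with the signal of a107 as a covariate or without horizontal fraction 1, and adjusted p was 0.0493 for Csf1r and 0.0449 for C1qa in the reported fit. The summed level of the microglial list ranged from 4.42 to 6.25 in that series and that of the astrocyte list from 5.39 to 6.78. Of the 5 astrocyte genes Aqp4 passed, also higher ventrally. Aqp4 too did not pass with the signal of a107 as a covariate or without horizontal fraction 1. No Schwann cell, endothelial or neuronal gene passed the horizontal test. The part of these cells in the members' levels was not tested.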

How the data were processed

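Total RNA of 22 brain fractions was labelled with Cy3 and hybridised to 1-colour Agilent SurePrint G3 mouse arrays, and samples were grouped by the section plane in the labels. Per the file headers, the authors extracted the arrays with Feature Extraction 10.10.1.1, which gives a background-subtracted processed intensity for each spot on a linear scale. The deposited table of log2 values held log2 of that intensity minus the array's 75th percentile (100% within 0.02 units over 47478 matched transcripts).

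From the scanner files, control and outlier spots (131 to 187 per array) were left out, spots of a probe were averaged and the same quantity was computed for 55600 probes. Symbols came from RefSeq (GRCm38.p6, for names; the arrays were designed on mm9), with 26553 of 28087 RefSeq probes matched. The 39621 probes well above background in at least 1 fraction of each series were tested with limma 3.58.1 in R 4.3.3 (no trend, not robust). A single model over 22 arrays held, per series, an intercept and linear and quadratic terms of slab position, which leaves 13 residual degrees of freedom. Its spread is the scatter of single arrays around these curves and holds no spread between animals, so p-values measure that scatter only. P-values were adjusted by Benjamini-Hochberg over every probe tested, with a threshold of 0.05. The model was tested on simulated data.

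Named genes were the 9 members, the 10 other genes most like their mean, and from the gene lists those with extreme changes or needed to name few calls. Bcas1, Sox10, Olig1, Pdgfra and Cspg4 were added for their roles, after their values had been seen. Some genes that this rule names are not reported here, while the counts over the lists include every measured gene. The members and lists were chosen with earlier results of these data known. The scanner files have no mean signal, so normexp was run on the median signal. The study names no test. Descriptive tables and figures were made in Python 3.11.15 with numpy 2.4.6, pandas 2.3.3 and matplotlib 3.10.9.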

Additional observations from a re-analysis of the deposited data

Results flagged for a closer look

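In the 27 sets of values formed by 9 genes and 3 series, 4 held a fraction far from the others by Dixon's ratio. The ratio flags about 1 of 20 sets by chance only where the values are replicates. Here the fractions are different positions and the genes share arrays, so the 4 sets cannot be set against that rate. Mbp (probe 1) was lowest in sagittal fraction 6, at 1.74, which lay 0.86 units under the next fraction, and in horizontal fraction 2, at 2.09, which lay 0.34 units under the next. Mog was lowest in sagittal fraction 1, at -1.22, by 0.83 units. Opalin was lowest in the same fraction, at -7.31, by 1.96 units, and it was not well above background there. Sagittal fractions 1 and 6 are the lateral ends and pooled 2 and 3 slabs.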

How the results depend on the processing

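No paired analysis was possible because a fraction number of different series is a different position in a different brain. The member counts of the coronal joint test were within 1.5 times of 8 under every alternative run, and those of the coronal linear test within 1.5 times of 7 except with the slide as a block, where 0 passed. Leaving out single fractions gave 7 to 8 members in the coronal joint test, 6 to 7 in the coronal linear test, 0 to 6 in the horizontal test, 0 to 0 in the sagittal linear test and 0 to 2 in the sagittal quadratic test. In the horizontal test 0 members passed with spike-in probe a107 as a covariate (101 of all probes), 0 with the arrays of in-range slope alone (13 probes), 0 with the arrays of that series alone (0 probes) and 1 with linear terms only (206 probes), against 2604 probes in the reported fit. In the sagittal linear test, passed by 4046 probes as reported, 1 member passed with no scaling (2765 probes), 1 with normexp (6240) and 2 with in-range arrays (3435). In the sagittal quadratic test, passed by 12 probes as reported, 4 members passed with no scaling (219 probes), 4 with normexp (911), 4 among probes well above background on all arrays (534 of 25815) and 3 with trend and robust estimation (236). The late minus early difference of -1.24 became -0.49 with normexp and -0.37 with all probes averaged. It became 0.91 with probe 2, -0.65 without Mbp and Ermn and -0.72 without Opalin as well, which were alternatives chosen after seeing the data. Of 1606 single-gene values under 36 alternatives, 1528 kept their side of the threshold, 49 lost it, 26 gained it and 3 others passed with the opposite sign. These 3 included the coronal linear change of Mbp with probe 2 (-6.47). The others were the sagittal linear changes of Mag (-2.39) and Mobp (-3.29) with in-range arrays, which lack lateral sagittal fraction 1. No linear or quadratic term that passed in the reported fit turned its sign. The fitted coronal change of Opalin was -0.92 with normexp, whose offset lifts dim signals, and that of Mal was -3.32 without the 7 arrays of low slope. The other causes were not tested. Signal over background limits Opalin, and 1 animal per series limits every result.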
